A study of Homo sapiens with 6 samples.

Results

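The METTL genes encode methyltransferase-like enzymes, and the 10 described here, METTL1, METTL5, METTL6, METTL7A, METTL7B, METTL8, METTL9, METTL16, METTL17 and METTL18, lie outside the METTL3 and METTL14 pair that writes most m6A in messenger RNA. They are 10 of the 61860 genes in the table of read counts, found by their symbols, and each symbol matched 1 Ensembl identifier. The list was chosen by family name with the fold changes between the same libraries in view, so the members' values in that comparison, and the side of the threshold on which each fell, are given as a description and no p-value is attached to them. RNA was sequenced from 5637, an established human bladder cancer cell line, where 3 libraries carried the label siYTHDC1 and 3 the label of its control, siNC. YTHDC1 is a nuclear reader of m6A, and the comparison asks which transcripts differ when it is targeted. All cells were the same line, grown in RPMI 1640 with fetal bovine serum, and carried the label of a transfection and an infection; a plasmid is also named, so the reagent they share is unclear. Whether replicates were separate cultures is not stated, and the spread and p-values then measure only the variation between libraries.

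Those of the family that methylate use S-adenosylmethionine as the methyl donor, but their substrates differ widely. METTL1, METTL5, METTL6, METTL8 and METTL16 methylate transfer, ribosomal or small nuclear RNA, METTL9 and METTL18 methylate histidine in proteins, METTL7A and METTL7B are membrane-bound enzymes that methylate thiols, and METTL17 acts in the mitochondrial ribosome. In several tumour types METTL1 is known for raising m7G in transfer RNA and so the translation of growth genes.

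The libraries labelled siYTHDC1 held 34858457, 33223480 and 34104618 counts, and those labelled siNC held 35607577, 34628360 and 34722602 counts. The targeted gene went against the labels in part: YTHDC1 had 161, 18 and 14 counts in the libraries labelled siYTHDC1 and 50, 786 and 55 counts in those labelled siNC. It fell by 2.20 ± 0.69 (SE) on the log2 scale (edgeR adjusted p = 0.00864), but without siNC replicate 2 the log2 fold change was 0.31 (edgeR adjusted p = 0.691). Values "without both" below leave out siYTHDC1 replicate 1 and siNC replicate 2, the library of each group with the most YTHDC1 counts. Of 13 epithelial and urothelial markers, 10 averaged above 1 CPM (TMM-scaled counts per 1000000 counts) in at least 1 group and KRT20 was listed at 0. Their summed level ran from 6625 to 6745 CPM in siYTHDC1 libraries, against 11713 to 11879 CPM in siNC libraries. That sum was mostly keratins, of which KRT19, KRT8, KRT7, KRT5, KRT17 and KRT18 were called lower in siYTHDC1. GATA3, which is not a keratin, was also called lower (log2 fold change −0.42). EPCAM and TP63 were called higher (log2 fold changes 0.14 and 0.17), and CDH1 and UPK2 were not called (−0.01 and −0.46). Of 6 fibroblast markers 2 averaged above 1 CPM in at least 1 group, nearly all of it COL1A1, with sums of 89.6 to 95.2 CPM in siYTHDC1 and 76.0 to 83.1 CPM in siNC libraries, and DCN was listed at 0. None of 5 immune markers was above 1 CPM, with sums of 0.0877 to 0.286 CPM in siYTHDC1 and 0.145 to 0.367 CPM in siNC libraries, and CD3E and CD68 were listed at 0. CD68 is also expressed outside immune cells, and its 0 is not read as absence of expression. Of 4 endothelial markers 2 averaged above 1 CPM in at least 1 group, with sums of 5.43 to 6.81 CPM in siYTHDC1 and 4.71 to 7.34 CPM in siNC libraries. The part of these marker levels in the results was not tested.

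All 10 members passed the filter on low counts. A gene is said to be called where edgeR's quasi-likelihood test over all genes gave a Benjamini-Hochberg adjusted p under 0.05; for the members this only sorts them, since they were chosen from the same libraries. METTL5 was on the called side and higher in the libraries labelled siYTHDC1, and METTL1, METTL7A and METTL9 were on it and lower. METTL6, METTL7B, METTL8, METTL16, METTL17 and METTL18 were not called. Thus 1 of 10 was higher where 26.3% of the 17372 genes tested were higher, 3 of 10 were lower where 27.1% were, and 4 of 10 were called in either direction where 53.4% were; nothing is read from these shares. The groups did not overlap for 6 members, METTL1, METTL5, METTL7A, METTL9, METTL16 and METTL17, and for 59.3% of all genes tested. The median log2 fold change was −0.05 over the members and −0.000406 over all genes tested. Without both libraries 3 members were called, METTL5 higher and METTL1 and METTL7A lower. In RNA of a whole culture, fewer cells with a transcript and less of it per cell cannot be told apart.

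**Figure D1:**
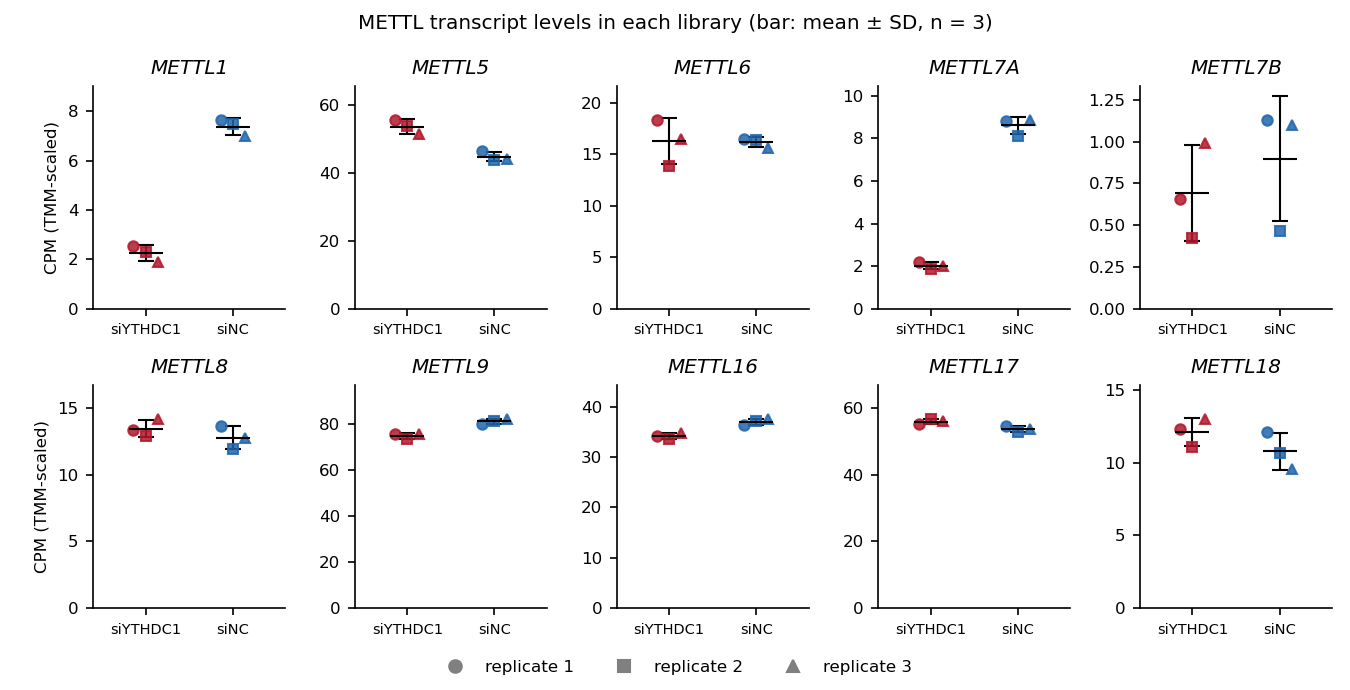
Level of each of the 10 METTL genes in every library, in TMM-scaled CPM, with libraries labelled siYTHDC1 on the left and siNC on the right of each panel; points are libraries and the line is the mean with its SD (n = 3). METTL1 and METTL7A show the widest gaps between groups relative to their level, with every siYTHDC1 library under 3 CPM and every siNC library above 6 CPM.

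METTL1 adds m7G to transfer RNAs together with WDR4, a partner that carries no catalytic site. METTL1 (ENSG00000037897, chr12:57768471-57772793 on GRCh38, minus strand, at most 6 exons in a transcript) showed 89, 76 and 65 counts in the libraries labelled siYTHDC1, against 271, 258 and 242 counts in those labelled siNC. Every siYTHDC1 library lay far below every siNC library. The mean was 2.24 ± 0.326 CPM in siYTHDC1 and 7.38 ± 0.344 CPM in siNC libraries (SD, n = 3 each). The level was 3.29-fold lower in siYTHDC1, at a log2 fold change of −1.72 ± 0.17 (SE). Of the 17372 genes tested, 137 had a lower log2 fold change. Leaving out 1 library at a time gave log2 fold changes of −1.82 to −1.61, and without both libraries it was −1.81. WDR4 had 725, 636 and 662 counts in siYTHDC1, against 836, 838 and 825 counts in siNC libraries. It fell as well but far less, by 0.28 ± 0.08 on the log2 scale (edgeR adjusted p = 0.0028). Per length, METTL1 stood at 0.128, 0.125 and 0.103 of WDR4 in the siYTHDC1 libraries, against 0.339, 0.322 and 0.306 in the siNC libraries, and the groups did not overlap.

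At this position METTL1 shares exonic bases with its neighbours, and exons of other genes cover 23.4% of its exonic bases, 4.08% on the same strand. On the same strand it meets CYP27B1, the vitamin D 1-alpha-hydroxylase, and on the other strand EEF1AKMT3, a METTL-type lysine methyltransferase of a translation elongation factor. CYP27B1 had 452, 375 and 361 counts in siYTHDC1, against 250, 153 and 228 counts in siNC libraries, and rose by 0.94 ± 0.14 on the log2 scale (edgeR adjusted p = 1.88e-06). EEF1AKMT3 had 274, 251 and 249 counts in siYTHDC1, against 198, 182 and 202 counts in siNC libraries. It rose by 0.44 ± 0.13 on the log2 scale (edgeR adjusted p = 0.00586), and without both libraries its log2 fold change was 0.37 with an edgeR adjusted p of 0.0739. Both neighbours thus moved the other way from METTL1, and no source used here states whether the counting used strand. The METTL1 promoter was not used here.

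**Figure D2:**
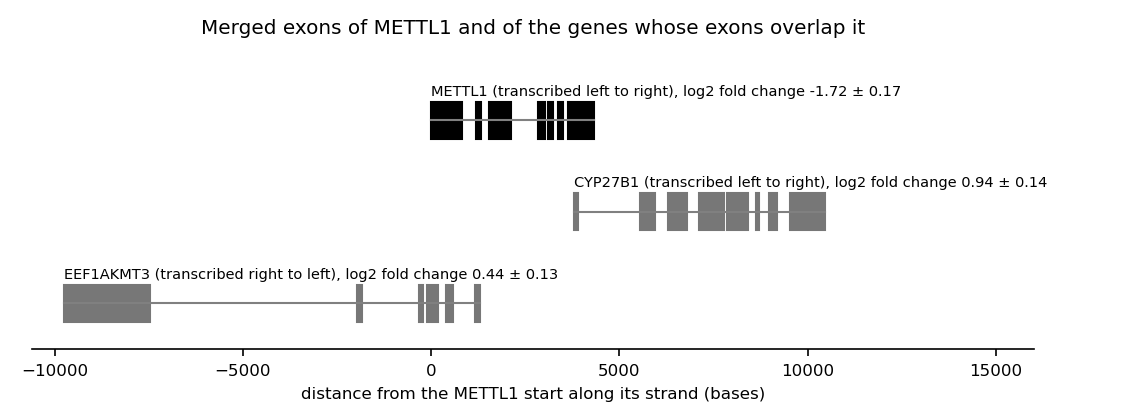
Exons of METTL1 and of the 2 genes whose exons overlap it, drawn to scale along the strand of METTL1 in bases from its start, each with its log2 fold change (siYTHDC1 over siNC) and SE. The overlaps lie toward both ends of METTL1; the log2 fold change is −1.72 for METTL1, 0.94 for CYP27B1 and 0.44 for EEF1AKMT3.

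METTL5 places m6A in the RNA of the small ribosomal subunit and is kept stable by TRMT112, a small partner shared by several methyltransferases. METTL5 (ENSG00000138382, chr2:169810081-169824931, minus strand) had 1941, 1796 and 1757 counts in siYTHDC1, against 1643, 1511 and 1528 counts in siNC libraries. The groups did not overlap, with means of 53.6 ± 2.13 CPM in siYTHDC1 and 44.8 ± 1.39 CPM in siNC libraries (SD, n = 3 each). The log2 fold change was 0.26 ± 0.05 (SE), with values from 0.23 to 0.29 when 1 library at a time was left out. TRMT112 moved the other way: it had 5581, 5083 and 4328 counts in siYTHDC1, against 7138, 6773 and 6697 counts in siNC libraries. It fell by 0.43 ± 0.05 on the log2 scale (edgeR adjusted p = 6.05e-08). Exons of ESRRA on the opposite strand cover 17.5% of the exonic bases of TRMT112. Per length, METTL5 stood at 0.197, 0.200 and 0.230 of TRMT112 in siYTHDC1, against 0.131, 0.127 and 0.129 in siNC libraries. Of the exonic bases of METTL5, 20.0% lie under exons of SSB, the La RNA-binding protein, on the opposite strand, and SSB fell by 0.25 ± 0.04 on the log2 scale (edgeR adjusted p = 6.51e-06).

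METTL6 and METTL8 both place m3C in transfer RNA, METTL6 in serine transfer RNAs and METTL8 in mitochondrial ones. METTL6 (ENSG00000206562, chr3:15381275-15440566, minus strand) had 640, 463 and 565 counts in siYTHDC1, against 583, 565 and 541 counts in siNC libraries. The siYTHDC1 libraries spread to both sides of the siNC ones, and the means were 16.2 ± 2.22 CPM in siYTHDC1 and 16.2 ± 0.464 CPM in siNC libraries. The log2 fold change was 0.01 ± 0.09 (SE). METTL8 (ENSG00000123600, chr2:171317405-171434802, minus strand) had 466, 430 and 485 counts in siYTHDC1, against 484, 412 and 442 counts in siNC libraries. The groups overlapped, with means of 13.5 ± 0.643 CPM in siYTHDC1 and 12.8 ± 0.855 CPM in siNC libraries and a log2 fold change of 0.07 ± 0.09 (SE). SARS1, the seryl-tRNA synthetase that METTL6 works with, had 19885, 18965 and 19915 counts in siYTHDC1, against 10114, 9703 and 9859 counts in siNC libraries. It rose by 1.01 ± 0.03 on the log2 scale (edgeR adjusted p = 1.22e-21). The close relatives of METTL6 and METTL8 were METTL2B and METTL2A. METTL2B fell by 0.32 ± 0.07 on the log2 scale (edgeR adjusted p = 1.99e-04). METTL2A had a log2 fold change of −0.07 ± 0.06 (edgeR adjusted p = 0.368). Of the exonic bases of METTL2B, 7.75% lie under another gene on the same strand. Sequence shared between METTL2A and METTL2B was not examined.

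METTL16 methylates the U6 small nuclear RNA, and it also binds hairpins in the 3′ untranslated region of MAT2A messenger RNA, the gene for the enzyme that makes S-adenosylmethionine. The letters it is known to read, searched as TACAGANAA on the sense strand in GRCh38, are shown because the MAT2A transcript carries them 6 times. Capitals mark the match, and each run has 10 bases before and 11 after it.
MAT2A match 1, chr2:85543802-85543831, plus strand: tggcgtaggcTACAGAGAAgccttcaagct
MAT2A match 2, chr2:85544589-85544618, plus strand: tgtgatgtcaTACAGAGAAgtcacagggca
MAT2A match 3, chr2:85544774-85544803, plus strand: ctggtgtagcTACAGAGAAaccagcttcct
MAT2A match 4, chr2:85544889-85544918, plus strand: atggcgtaagTACAGAGAAgccatcacctc
MAT2A match 5, chr2:85545004-85545033, plus strand: caaggtgtccTACAGAAAAaccttgggtta
MAT2A match 6, chr2:85545112-85545141, plus strand: gctggtgtggTACAGAGAAgccagcttgtt
The sequences are from the GRCh38 genome with GENCODE release 29 transcripts. In the longest protein-coding transcript of each of 19702 genes, 10.8% of genes held at least 1 match and 3 genes held 6 or more. A match is a description of the letters and not a site of methylation.

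METTL16 (ENSG00000127804, chr17:2405562-2511891, minus strand) had 1197, 1120 and 1191 counts in siYTHDC1, against 1292, 1281 and 1301 counts in siNC libraries. After scaling, every siYTHDC1 library lay below every siNC library, with means of 34.2 ± 0.592 CPM in siYTHDC1 and 37.1 ± 0.558 CPM in siNC libraries (SD, n = 3 each). The log2 fold change was −0.12 ± 0.06 (SE) and was not called in any of 15 other settings of the processing. MAT2A, whose transcript holds the 6 matches above, had 5908, 5623 and 5693 counts in siYTHDC1, against 7443, 7296 and 7032 counts in siNC libraries. It fell by 0.31 ± 0.03 on the log2 scale (edgeR adjusted p = 6.43e-09). Exons of GGCX on the opposite strand cover 12.4% of the exonic bases of MAT2A. Per length, METTL16 stood at 0.102, 0.100 and 0.105 of MAT2A in siYTHDC1, against 0.0872, 0.0882 and 0.0929 in siNC libraries, without overlap. MEPCE, which caps another small nuclear RNA and binds METTL16, fell by 0.98 ± 0.13 on the log2 scale (edgeR adjusted p = 6.3e-07), with means of 9.30 ± 2.84 CPM in siYTHDC1 and 18.3 ± 1.36 CPM in siNC libraries. LARP7, the partner of MEPCE on that RNA, had a log2 fold change of −0.10 ± 0.09 (edgeR adjusted p = 0.412).

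METTL7A and METTL7B are paralogues that sit in the endoplasmic reticulum membrane and on lipid droplets and methylate thiols, and RefSeq names them TMT1A and TMT1B. METTL7A (ENSG00000185432, chr12:50923472-50932517, plus strand, 3 exons) had 77, 62 and 68 counts in siYTHDC1, against 313, 280 and 307 counts in siNC libraries. Every siYTHDC1 library lay far below every siNC library, and the spread within each group was small. The mean was 2.02 ± 0.174 CPM in siYTHDC1 and 8.61 ± 0.420 CPM in siNC libraries (SD, n = 3 each). The level was 4.27-fold lower in siYTHDC1, at a log2 fold change of −2.09 ± 0.16 (SE). Of the 17372 genes tested, 67 had a lower log2 fold change. Leaving out 1 library at a time gave −2.16 to −2.04, and without both libraries it was −2.20. None of its exonic bases lies under an exon of another gene in GENCODE release 29.

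METTL7B (ENSG00000170439, chr12:55681546-55684611, plus strand) was the lowest of the members, with 23, 14 and 34 counts in siYTHDC1, against 40, 16 and 38 counts in siNC libraries. The libraries of both groups were interleaved, with means of 0.691 ± 0.288 CPM in siYTHDC1 and 0.897 ± 0.375 CPM in siNC libraries. The log2 fold change was −0.38 ± 0.44 (SE), and the libraries within each group varied with a coefficient of variation of 41.7% in siYTHDC1 and 41.8% in siNC libraries, so no difference was resolved. Per length, METTL7A stood at 1.23, 1.63 and 0.738 times METTL7B in siYTHDC1, against 2.89, 6.45 and 2.98 times in siNC libraries. By merged-exon length METTL7A was thus above METTL7B in every siNC library and below it in 1 siYTHDC1 library, replicate 3. This order depends on the length used. METTL7A has 4083 merged exonic bases against 1506 for METTL7B, but 732 coding bases against 828. Without division by length METTL7A was above METTL7B in siYTHDC1 replicate 3, at 1.99 against 0.994 CPM.

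The 250 bases before the RefSeq start of both paralogues (GRCh38.p14) are shown. METTL7A had the lowest log2 fold change of the members, and METTL7B is its closest relative. The log2 fold changes of the pair were not tested against each other. In GENCODE, which gave the positions above, the genes start earlier on the strand, at 50923472 for METTL7A, or inside the run, at 55681546 for METTL7B. The METTL7A run thus lies wholly inside its GENCODE gene, and the METTL7B run reaches into its own. The values below describe these runs and not the bases before the GENCODE starts. Letters were searched on both strands, as GGGCGG for the GC box, as CCAAT for the box of that name, as TATAAA for the TATA box, as CACGTG for the E-box and as TGATGNAAT for the C/EBP-ATF element. Capitals mark each match, in either orientation, and a match says only that the letters are there.
METTL7A, chr12:50924765-50925014, plus strand: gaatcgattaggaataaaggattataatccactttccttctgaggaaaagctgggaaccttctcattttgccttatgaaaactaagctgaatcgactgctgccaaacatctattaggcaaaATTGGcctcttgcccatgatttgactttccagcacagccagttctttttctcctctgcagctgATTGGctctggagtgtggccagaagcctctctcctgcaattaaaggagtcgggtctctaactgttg
METTL7B, chr12:55681486-55681735, plus strand: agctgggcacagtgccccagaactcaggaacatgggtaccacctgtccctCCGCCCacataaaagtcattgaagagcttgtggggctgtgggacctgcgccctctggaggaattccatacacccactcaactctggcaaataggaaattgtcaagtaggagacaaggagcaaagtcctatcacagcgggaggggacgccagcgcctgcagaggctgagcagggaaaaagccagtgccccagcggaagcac
METTL7A held 2 CCAAT matches, 3 CpG dinucleotides and 44.4% GC. METTL7B held 1 GC box, 6 CpG dinucleotides and 57.2% GC. Over 35116 promoters of the same length, the median was 11 CpG dinucleotides and 58% GC, and GGGCGG was found in 42.6%, CCAAT in 32%, TATAAA in 10.7%, CACGTG in 6.34% and TGATGNAAT in 0.888%. Promoters of METTL5, METTL6, METTL8, METTL9, METTL16 and METTL18, also placed by RefSeq starts, held 5 to 30 CpG dinucleotides. Some of these too lie inside the GENCODE gene, such as that of METTL6. The METTL17 promoter was not used here.

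By the Pearson correlation of log2 CPM over the 6 libraries, the genes most like METTL7A among 11422 genes averaging at least 5 CPM were PDK1, a kinase that restrains pyruvate dehydrogenase (r = 0.9997), PAPLN, an extracellular matrix protein (r = 0.9996), and HNRNPC, an RNA-binding splicing protein (r = 0.9995). Their log2 fold changes were −0.64, −1.65 and −0.28. Such values follow largely from the shift between the 2 groups, and 460 genes had r above 0.99.

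METTL9 places 1-methylhistidine in proteins with short histidine repeats, such as zinc transporters and, in the mouse, S100A9. METTL9 (ENSG00000197006, chr16:21597218-21657473, plus strand) had the most counts of the members, 2644, 2446 and 2581 in siYTHDC1, against 2831, 2800 and 2839 in siNC libraries. The groups did not overlap, with means of 74.8 ± 1.24 CPM in siYTHDC1 and 81.1 ± 1.05 CPM in siNC libraries (SD, n = 3 each). The log2 fold change was −0.12 ± 0.04 (SE), and the call was lost when siYTHDC1 replicate 2, siNC replicate 2 or siNC replicate 3 was left out, and without both libraries. S100A9, a calcium-binding alarmin, had 171101, 164229 and 161754 counts in siYTHDC1, against 293344, 286898 and 270760 counts in siNC libraries. It fell by 0.75 ± 0.02 on the log2 scale (edgeR adjusted p = 1.16e-21). The zinc transporter gene SLC39A7 had 0, 2 and 2 counts in siYTHDC1 and 0, 0 and 0 counts in siNC libraries and was not tested. The gene is widely expressed in human cells, so these counts are not read as absence of expression.

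METTL18 methylates a histidine of the ribosomal protein RPL3. METTL18 (ENSG00000171806, chr1:169792529-169794966, minus strand, 2 exons) had 430, 369 and 445 counts in siYTHDC1, against 430, 368 and 331 counts in siNC libraries. The groups overlapped, with means of 12.1 ± 0.976 CPM in siYTHDC1 and 10.8 ± 1.29 CPM in siNC libraries and a log2 fold change of 0.17 ± 0.11 (SE). RPL3 had 40677, 37993 and 37592 counts in siYTHDC1, against 50753, 47501 and 47619 counts in siNC libraries, and fell by 0.30 ± 0.02 on the log2 scale (edgeR adjusted p = 2.41e-11).

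METTL17 is a mitochondrial protein needed to assemble the small mitochondrial ribosomal subunit. METTL17 (ENSG00000165792, chr14:20989770-20997035, plus strand, 14 exons) had 1923, 1886 and 1915 counts in siYTHDC1, against 1933, 1818 and 1863 counts in siNC libraries. After scaling, the siYTHDC1 libraries all lay just above the siNC ones, with means of 55.9 ± 0.788 CPM in siYTHDC1 and 53.7 ± 0.912 CPM in siNC libraries. The log2 fold change was 0.06 ± 0.05 (SE), not called in any of 15 other settings. METTL15, which methylates the small mitochondrial ribosomal RNA, had a log2 fold change of 0.16 ± 0.09 (edgeR adjusted p = 0.115).

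**Figure D3:**
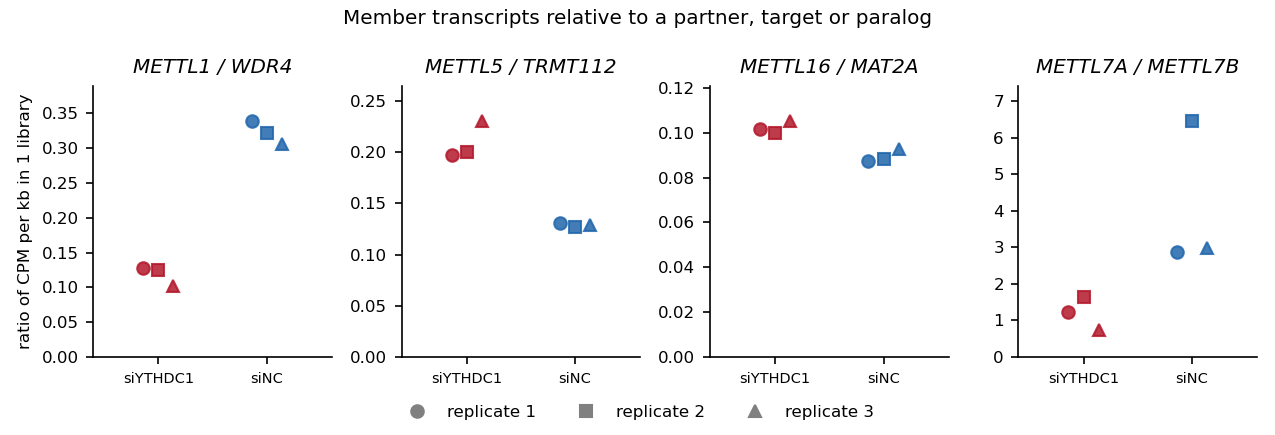
Ratio of each METTL gene to its partner, substrate or paralogue in every library, as CPM per kilobase over CPM per kilobase, with libraries labelled siYTHDC1 left of siNC. The METTL1 to WDR4 ratio was 0.103 to 0.128 in siYTHDC1, against 0.306 to 0.339 in siNC libraries, and none of the 4 ratios overlapped between groups.

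The order of the levels was compared per kilobase of merged exons. In the siYTHDC1 libraries it was METTL5 (18.7 ± 0.742 CPM per kilobase), METTL17 (12.6 ± 0.177), METTL9 (10.6 ± 0.176), METTL18 (7.69 ± 0.618), METTL16 (3.83 ± 0.0663), METTL6 (2.84 ± 0.389), METTL8 (1.34 ± 0.0638), METTL1 (0.856 ± 0.124), METTL7A (0.494 ± 0.0425) and METTL7B (0.459 ± 0.191). Of neighbours in that order only METTL7A and METTL7B overlapped between libraries. In the siNC libraries the first 6 places were the same, from METTL5 at 15.6 ± 0.485 to METTL6 at 2.83 ± 0.0812 CPM per kilobase. METTL1 followed at 2.81 ± 0.131, ahead of METTL7A at 2.11 ± 0.103, METTL8 at 1.27 ± 0.0848 and METTL7B at 0.596 ± 0.249 CPM per kilobase, and of neighbours only METTL6 and METTL1 overlapped. By this length METTL1 and METTL7A thus stood below METTL8 in siYTHDC1 and above it in siNC libraries. For METTL1 that switch depends on the length. With coding length METTL1 was already below METTL8 in the siNC libraries, at 8.91 against 10.5 CPM per coding kilobase. The order depends on the length used: with coding length instead of merged exons, 9 of the 10 members take another place in the siNC libraries and METTL9 comes first.

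**Figure D4:**
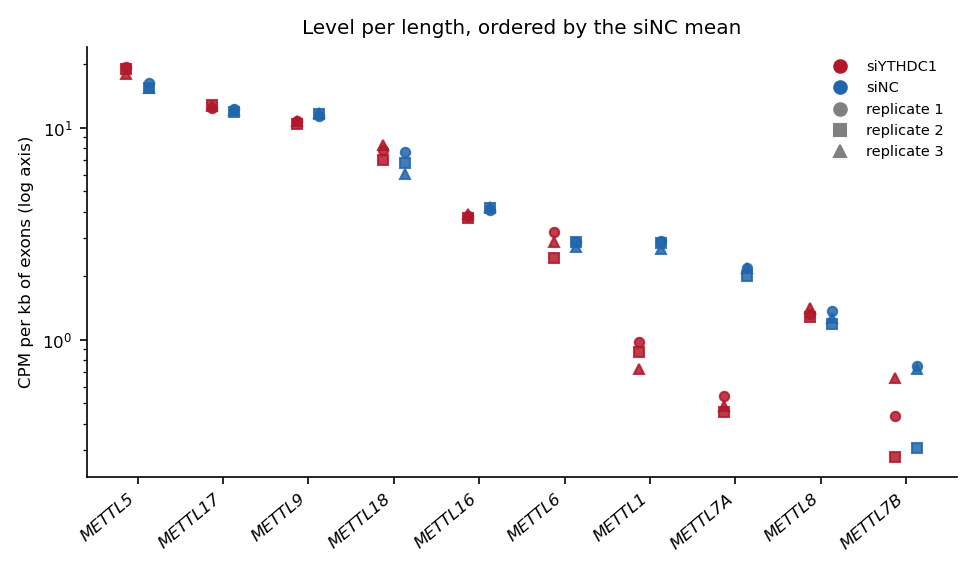
Level of the 10 METTL genes in CPM per kilobase of merged exons on a log axis, in the order of the siNC mean, with libraries labelled siYTHDC1 left of siNC; points are libraries. By this length METTL5 is highest in both groups, and METTL1 and METTL7A drop below METTL8 in siYTHDC1 libraries. With coding length METTL1 is already below METTL8 in siNC libraries.

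Of 22 other METTL-numbered genes, including those now renamed, 19 were tested, 5 rose, 4 fell and 10 were not called (47.4% called, beside 53.4% of all genes), with a median log2 fold change of 0.08. METTL25B rose to 72.3 ± 4.45 CPM in siYTHDC1, against 39.4 ± 1.94 CPM in siNC libraries (log2 fold change 0.88 ± 0.06, edgeR adjusted p = 2.67e-13). METTL26 fell to 62.2 ± 5.36 CPM in siYTHDC1, against 80.6 ± 4.39 CPM in siNC libraries (log2 fold change −0.37 ± 0.05, edgeR adjusted p = 1.77e-06). METTL25 fell on low counts, 41, 34 and 21 in siYTHDC1 against 85, 48 and 59 in siNC libraries (log2 fold change −0.97 ± 0.33, edgeR adjusted p = 0.015), and lost its call without siYTHDC1 replicate 3 (edgeR adjusted p = 0.071) and without siNC replicate 1 (0.116).

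**Figure D5:**
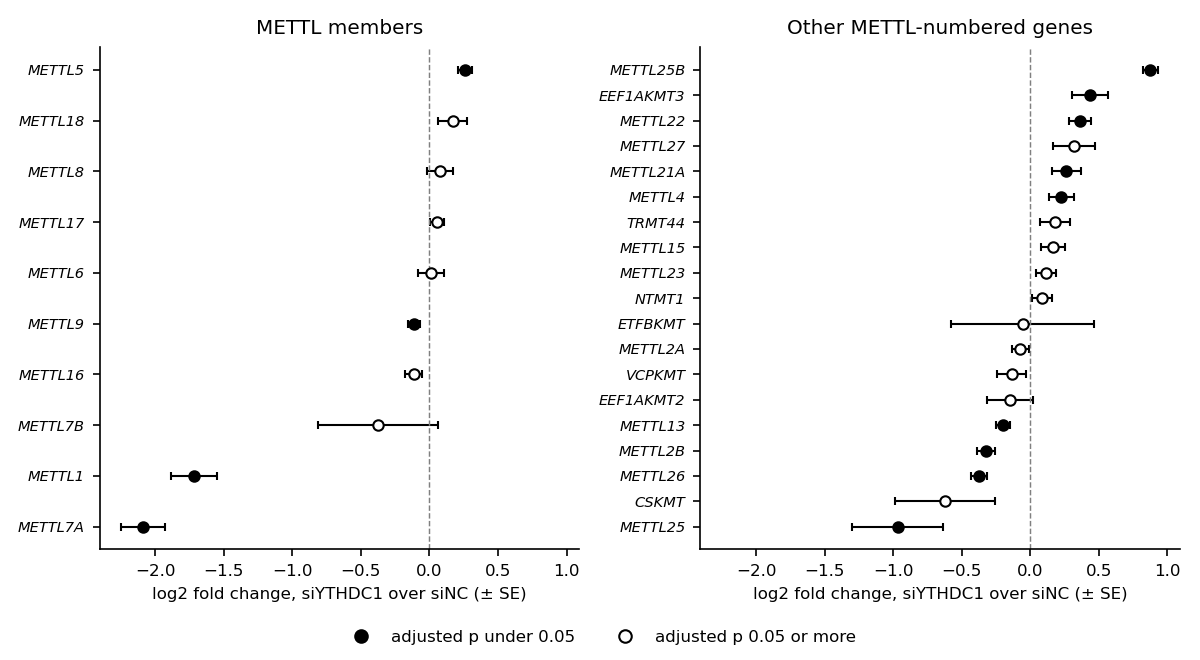
Log2 fold change (siYTHDC1 over siNC) with its SE for the 10 members and the 19 other METTL-numbered genes tested. Filled points have an edgeR adjusted p under 0.05. For the members the fill only sorts them, since they were chosen from the same libraries. METTL7A at −2.09 and METTL1 at −1.72 lie farthest from 0, and METTL25B at 0.88 is the highest.

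The list of partners and substrates of the members also holds DALRD3 and LARP7, given here as partners of METTL2 enzymes and of MEPCE. Its genes were mostly lower: of 17 listed, 15 were tested, 11 fell, SARS1 rose and 3 were not called. That is 80% called, beside 53.4% of all genes tested (26.3% higher and 27.1% lower). The median log2 fold change was −0.29. The list was made with earlier results of these data known, and nothing is read from these shares. Without both libraries the counts were 11 lower and 1 higher. Among others, named here after their values were seen, 3 METTL9 substrates fell: NDUFB3 of respiratory complex I by 0.29 ± 0.08 on the log2 scale (edgeR adjusted p = 0.0023), ARMC6 by 0.26 ± 0.07 (0.00214) and DNAJB12, a chaperone of the endoplasmic reticulum, by 0.27 ± 0.06 (4e-04). SARS2, the mitochondrial seryl-tRNA synthetase, fell by 0.69 ± 0.21 on the log2 scale (edgeR adjusted p = 0.00692) and lost its call without siNC replicate 2 (0.0537). TARS2, the mitochondrial threonyl-tRNA synthetase, and DALRD3, a partner of METTL2 enzymes, were not called, with log2 fold changes of 0.08 ± 0.06 and −0.10 ± 0.07 (edgeR adjusted p = 0.262 and 0.2).

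Among other methyltransferases of transfer RNA, ribosomal RNA and caps, 48 of 49 listed were tested, 20 fell, 9 rose and 19 were not called. That is 60.4% called, beside 53.4% of all genes tested (26.3% higher and 27.1% lower), and the median log2 fold change was −0.12. NOP2, the gene not tested, had 7, 21 and 7 counts in siYTHDC1, against 6, 5 and 5 counts in siNC libraries. MRM2, which was tested, had 12, 14 and 6 against 20, 9 and 14 counts. Such low counts are not read as absence of expression. TRMT12 and LCMT2, enzymes of wybutosine synthesis in phenylalanine transfer RNA, fell by 0.97 ± 0.09 and 0.71 ± 0.07 on the log2 scale (edgeR adjusted p = 7.35e-10 and 2.18e-09). TYW3, of the same pathway and chosen after its values were seen, rose by 0.21 ± 0.09 (edgeR adjusted p = 0.0407), a call kept in 2 of 6 fits that left out 1 library and lost without both libraries (0.103). TRDMT1, a cytosine methyltransferase of transfer RNA, fell to 4.07 ± 0.437 CPM in siYTHDC1, against 6.48 ± 0.961 CPM in siNC libraries (edgeR adjusted p = 0.000733). TFB1M, which dimethylates the small mitochondrial ribosomal RNA, rose to 28.0 ± 0.735 CPM in siYTHDC1, against 19.1 ± 2.10 CPM in siNC libraries (log2 fold change 0.55 ± 0.08, edgeR adjusted p = 1.72e-06).

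Of the genes of S-adenosylmethionine supply and use, 20 of 23 were tested, 4 rose, 5 fell and 11 were not called. That is 45% called, beside 53.4% of all genes tested (26.3% higher and 27.1% lower), and the median log2 fold change was −0.05. AMD1, which decarboxylates S-adenosylmethionine for polyamines, fell by 0.54 ± 0.04 on the log2 scale (edgeR adjusted p = 1.01e-12), and AHCYL2, a relative of the hydrolase of S-adenosylhomocysteine, rose by 0.42 ± 0.06 (1.78e-06). In the methionine salvage pathway ADI1 fell by 0.62 ± 0.15 on the log2 scale (edgeR adjusted p = 0.00123) while APIP rose by 0.57 ± 0.08 (1.31e-06).

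Of 28 genes of mitochondrial ribosome assembly, the setting of METTL17, all were tested, 6 rose, 10 fell and 12 were not called. That is 57.1% called, beside 53.4% of all genes tested (26.3% higher and 27.1% lower), and the median log2 fold change was −0.05. RPUSD4, a pseudouridine synthase, fell by 0.71 ± 0.08 on the log2 scale (edgeR adjusted p = 9.27e-09). DDX28, a helicase of the large mitochondrial subunit, fell by 0.67 ± 0.08 (edgeR adjusted p = 1.43e-07). Exons of DUS2 on the opposite strand cover 22.5% of the exonic bases of DDX28. MTG1, a mitochondrial GTPase with 45.5% of its exonic bases under other genes, had a log2 fold change of −0.79 ± 0.24 (edgeR adjusted p = 0.00636), which lost its call without both libraries (0.122). TFB1M, given above, is also of this list.

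Genes of lipid droplets and of thiol and sulphide metabolism are the setting of METTL7A and METTL7B. Of 33 listed, 28 were tested, 14 rose, 6 fell and 8 were not called. That is 71.4% called, beside 53.4% of all genes tested (26.3% higher and 27.1% lower), and the median log2 fold change was 0.18. This list too was made with earlier results of these data known, and nothing is read from its shares. PLIN1, a coat protein of lipid droplets, had 67, 108 and 91 counts in siYTHDC1, against 40, 22 and 9 counts in siNC libraries (log2 fold change 1.94 ± 0.37, edgeR adjusted p = 5.94e-05). CTH, which makes cysteine and hydrogen sulphide, rose to 32.3 ± 1.09 CPM in siYTHDC1, against 13.5 ± 0.888 CPM in siNC libraries (edgeR adjusted p = 1.47e-13). SQOR, which oxidises hydrogen sulphide, rose to 81.3 ± 2.01 CPM in siYTHDC1, against 37.9 ± 1.65 CPM in siNC libraries (edgeR adjusted p = 2.58e-16), and 28.5% of its exonic bases lie under another gene on the same strand. SUOX, the sulphite oxidase, fell to 8.74 ± 1.13 CPM in siYTHDC1, against 21.1 ± 1.91 CPM in siNC libraries (edgeR adjusted p = 2.86e-11).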

How the data were processed

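The authors deposited raw read counts per Ensembl gene, 1 column per library, matched to libraries by their names; 0 columns were left unused. Per the submitters' processing notes, the build is hg38; no source used here names the aligner, the counting program, its annotation or its strand setting. Symbols came from a name table for 61757 of 61860 identifiers, and positions, exons and lengths from GENCODE release 29, which holds 58308. Counts of all 6 libraries entered 1 fit of edgeR 4.0.16 (limma 3.58.1, R 4.3.3), with TMM scaling, the default filter on low counts (17372 genes kept), group as the only term and Benjamini-Hochberg adjustment over all genes tested; a call is an adjusted p under 0.05. The common biological coefficient of variation was 0.056. Overlap with exons of other genes is not given for every gene named. Levels are TMM-scaled CPM; log2 CPM for correlations used a prior count of 2. The fit was also run on simulated counts. These gave every gene the same dispersion, and libraries differed only in depth and in the changes set between groups. That run checked the code and says nothing about the calls given here. Alternatives were DESeq2 1.42.0, other scalings and filters, other lengths, a replicate block and leaving out libraries; a fit without both libraries was added after seeing the data. By the rule for named genes the text gives all members, WDR4, TRMT112, SARS1, MAT2A, RPL3, METTL2A, METTL2B, METTL15, the 3 genes most like METTL7A and, per list, at most 4 called genes of at least 1 CPM with the largest changes, except for a gene that is not reported here; TYW3 and the other partners and substrates, LARP7 among them, were added after their values were seen. Members and lists were chosen with earlier results of these data known. Figures used Python 3.11.15 and matplotlib 3.10.9.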

Additional observations from a re-analysis of the deposited data

How the results depend on the processing

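The counts of calls in either direction, over all genes, the members and each list, were recomputed under 15 alternatives, and 120 of 120 stayed within 1.5 times the reported count. The genes called ran from 8145 (3975 higher and 4170 lower) without both libraries, a setting chosen after seeing the data, to 9308 with scaling to the total only. With the replicate number as a block, 9227 genes were called, beside 9278 without it, and 4 members as before. Same-numbered libraries did not deviate together (r = 0.00545, −0.00654 and −0.0165). With 3 libraries per group such values cannot show whether same-numbered libraries share a culture or a day. Of 599 log2 fold changes of 40 named genes, 591 kept their call, 8 lost it and 0 reversed; scalings and filters moved the median of all genes by at most 0.0145. METTL9 lost its call without siYTHDC1 replicate 2 (−0.10), siNC replicate 2 (−0.12), siNC replicate 3 (−0.11) and both libraries (−0.12). METTL25 lost it without siYTHDC1 replicate 3 (−0.74) and siNC replicate 1 (−0.73), and EEF1AKMT3 (0.37) and MTG1 (−0.54) without both. In the order of levels, 9 members took another place with coding length, and 0 to 2 did when 1 siNC library was left out. Of the other METTL-numbered genes, 5 rose, against 3 with no filter, without siYTHDC1 replicate 1 or without siNC replicate 1, and 2 without both. METTL7B could not be tested with a filter of at least 1 CPM in 3 libraries, and its 14 to 40 counts per library and their spread limit what can be detected.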
